A study of Homo sapiens with 240 samples.

Results

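The factors that build ribosomes were followed through 5 RNA sequencing experiments on HEK 293T cells. The set held 57 genes chosen by function, with earlier results of these data known. All 57 reached 1 TPM (a transcript level scaled for transcript length and library) in at least 3 libraries of each deposited table. They stand among 27234 listed genes, of which between 13317 and 13746 per table reached that level and were tested. By role, 3 encode RNA polymerase I subunits, 3 the core proteins of box C/D small nucleolar ribonucleoproteins (snoRNPs), 4 those of box H/ACA snoRNPs and 4 nucleolar chaperones and scaffolds. A further 19 act in the small subunit processome and 40S assembly, and 24 in 60S assembly.

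Ribosomes are made in the nucleolus, where RNA polymerase I transcribes a long precursor that holds several of the ribosomal RNAs. Box C/D snoRNPs guide ribose methylation and box H/ACA snoRNPs guide pseudouridylation of that precursor, while the small subunit processome cleaves and folds its 5′ part into a pre-40S particle. A separate series of factors, among them the PeBoW complex of PES1, BOP1 and WDR12, matures the pre-60S particle before export. The pathway takes much of the energy of a growing cell. AMPK, a kinase switched on when ATP falls, restrains mTORC1 and other growth pathways, and many ribosome biogenesis genes are known targets of the transcription factor MYC.

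HEK 293T is a line of human embryonic kidney origin that carries the SV40 large T antigen. In the AMPK experiment, AMPK WT and AMPK knock out (KO) cells received DMSO, 991 (a direct AMPK activator), CCCP (a mitochondrial uncoupler), phenformin (Phen) or rotenone (Rot), both inhibitors of respiratory complex I. In the FNIP1 experiment, FNIP1 KO cells carried either a WT FNIP1 cDNA or SA5, a FNIP1 whose 5 AMPK sites are alanine, so both arms lack the cells' own FNIP1. The other 3 experiments compared WT with TFEB and TFE3 double KO (DKO) cells, WT with ESRRA (ERRa) KO cells, and a control siRNA with an siRNA against PGC1A, each with 991. Times were 2, 4, 8 and 16 h, with 24 h added in the last 3 experiments, and every group had 3 libraries, 240 in 80 groups in all. DMSO was taken at 0 h, so each comparison with DMSO also holds the time in culture. Doses, and whether a KO line is 1 clone, are not given in the sources used here, nor is it stated that the 3 libraries of a group came from separate cultures, so p-values measure the spread between these libraries.

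Each library's TPM over all listed genes added up to 396341 at the lowest and 449208 at the highest, and no read counts are kept, so the depth is unknown. PRKAA1, which encodes an AMPK catalytic subunit, stood at 6.27 to 7.41 TPM in the DMSO libraries of AMPK WT and at 2.16 to 2.80 TPM in those of AMPK KO. Of 6 markers of HEK 293T cells, 4 were at 1 TPM or more in every library (NEFM and PAX2 were not), and of 12 markers of other cell types 9 were below 1 TPM in every library (COL1A1, EPCAM and LUM were not). FNIP1 itself ran from 2.08 to 7.17 TPM in the AMPK and the TFEB and TFE3 libraries and from 129 to 290 TPM in the ESRRA and siRNA libraries, and the labels do not name FNIP1 for the latter. A total of 6 libraries carry descriptions at odds with their titles, 3 of AMPK WT under phenformin at 2 h and 3 of AMPK WT under CCCP at 4 h, and these were placed by title and tags. A pair of libraries of the SA5 arm stood apart. SA5 DMSO replicate 1 had FNIP1 at 5.47 TPM against 179 and 172 TPM in replicates 2 and 3. In that library the median gene of the 57 lay 0.52 below the mean of its group on the log2 scale, and in the other 2 libraries 0.27 above it. SA5 8 h replicate 1 lay 0.33 below that mean by the same measure, against 0.17 below in replicates 2 and 3. Results of the FNIP1 experiment are therefore given with both libraries, without the first and without both. In bulk RNA, fewer cells with a transcript and less transcript per cell cannot be told apart.

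The 57 genes spanned a wide range of levels under DMSO in AMPK WT cells (AMPK table, TPM). NCL, the nucleolar RNA chaperone nucleolin, was highest at 719, 785 and 767 TPM, followed by NPM1, the histone chaperone nucleophosmin, at 551, 648 and 611 TPM. FBL, the methyltransferase of the box C/D snoRNP, came next at 350, 348 and 340 TPM. The libraries of these 3 genes did not overlap, so their order exceeded the spread. At the other end stood POLR1A, the largest subunit of RNA polymerase I (12.6, 14.2 and 13.5 TPM), UTP15 (a processome subunit, mean 11.9 TPM), RRP15 (a 60S factor, 10.1 TPM) and UTP20 (a processome scaffold; 8.34, 9.65 and 9.20 TPM). The snoRNP core proteins and the chaperones were mostly near the top of the order, whereas the 40S and 60S factors lay mostly between 10 and 125 TPM.

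The E-box CACGTG, the core of sites bound by MYC and by TFEB and TFE3, was looked for in RefSeq promoters (GRCh38.p14, 250 bases before to 50 after the start site). It reads the same on both strands. Of the 57 genes, 48 had a promoter in that table, and 21 of these (43.8%) held CACGTG, beside 12.7% of the tested genes and 8.77% of all genes with a promoter. Of its 25 occurrences 19 began within 50 bases of the start site, and 15 lay after it. The following windows of 30 bases show the E-box (capitals) in genes on which later results turn, including NOC3L, which rose.
RRP9, chr3:51941892-51941921, minus strand: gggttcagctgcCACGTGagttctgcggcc
NOL6, chr9:33473894-33473923, minus strand: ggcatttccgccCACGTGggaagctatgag
BYSL, chr6:41921515-41921544, plus strand: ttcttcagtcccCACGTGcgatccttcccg
FBL, chr19:39846356-39846385, minus strand: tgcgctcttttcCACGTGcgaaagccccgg
NOP2, chr12:6568242-6568271, minus strand: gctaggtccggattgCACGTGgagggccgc
PES1, chr22:30591880-30591909, minus strand: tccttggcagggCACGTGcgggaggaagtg
GNL3, chr3:52686026-52686055, plus strand: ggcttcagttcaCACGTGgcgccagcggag
NOC3L, chr10:94362903-94362932, minus strand: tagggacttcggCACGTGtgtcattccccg
A match is a description of these letters and not of binding. Under 991 in AMPK WT cells at 4 h, 15 of 21 with the E-box and 16 of 27 without fell, with median changes of -0.21 and -0.23. At 16 h the counts were 15 of 21 and 18 of 27, with medians of -0.24 and -0.31. In WT cells of the TFEB and TFE3 experiment at 16 h, 21 of 21 and 21 of 27 fell (17.9% of all tested genes), with medians of -0.45 and -0.39. In the DKO cells at that time 19 of 21 and 21 of 27 fell, with medians of -0.35 and -0.36. Whether the E-box bears on these changes was not tested. DDX18, MPHOSPH10, RRS1, RRP12, NOLC1, NOP58, RRP1B, BOP1 and MAK16 had no entry.

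With 991, most of the 57 genes fell in AMPK WT cells. Changes are differences in the mean of log2(TPM + 1) with their standard error (SE), and a gene was called where limma's Benjamini-Hochberg adjusted p over all tested genes was under 0.05. Shares of all tested genes belong to this fit. None are given for other scalings or fits, so counts from those are not read as particular to the set. At 2 h, 26 genes fell and 3 rose, while 11.4% of all tested genes fell and 5.94% rose. At 4 h, 38 fell and 5 rose, beside 18.9% and 27% of all genes. The counts were 35 and 12 at 8 h (22.7% and 41.3% of all genes) and 41 and 7 at 16 h (26.9% and 41.9%). The median change of the 57 genes was -0.13, -0.23, -0.16 and -0.32 in the order of time, and that of all genes -0.02, 0.03, 0.08 and 0.07. At all 4 times 23 of the 57 genes fell, beside 4.4% of all tested genes, and 1, NOC3L, rose, beside 3.8%.

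**Figure D1:**
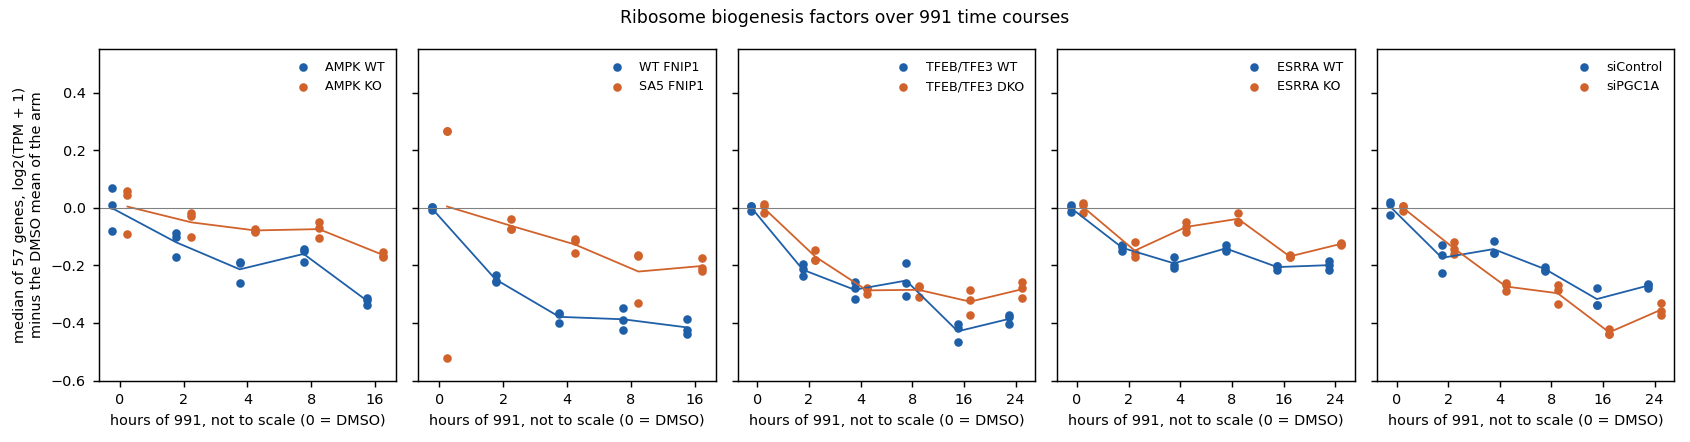
For each library of the 5 experiments, the median over the 57 genes of log2(TPM + 1) minus the DMSO mean of its arm (y) is plotted against hours of 991 (x, not to scale); points are libraries, lines join group means, blue is the control arm and orange the altered arm. At 16 h the 3 AMPK WT libraries lie between -0.34 and -0.31 and the 3 AMPK KO libraries between -0.17 and -0.15, while SA5 DMSO replicate 1 lies at -0.52, apart from replicates 2 and 3.

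Among the 24 factors of 60S assembly, 18 fell and 2 rose at 4 h (median -0.24) and again 18 and 2 at 16 h (median -0.31). RRS1, which brings the 5S ribonucleoprotein into the pre-60S particle (chromosome 8, 66429028 to 66430733, plus strand, GRCh38), was at 41.1, 45.9 and 44.5 TPM under DMSO. After 2 h of 991 it was at 23.5, 24.8 and 25 TPM, a change of -0.82 ± 0.05 (SE, adjusted p = 4.8e-22). The 3 libraries at each of the 4 times lay below every DMSO library, and RRS1 was the gene of the set with the largest fall at 2 and 4 h. At 16 h it stood at 23, 25.1 and 25.2 TPM (-0.82 ± 0.05, adjusted p = 1.0e-23). PES1 of the PeBoW complex fell from 116, 129 and 119 TPM to 83.4, 86.2 and 84 TPM at 16 h (-0.52 ± 0.04, adjusted p = 1.6e-18). Its partner BOP1 fell from 67.6, 71.2 and 67.2 TPM to 42.7, 43.8 and 43.6 TPM (-0.65 ± 0.05, adjusted p = 1.9e-19), with no overlap between the groups in either gene. The remaining PeBoW member, WDR12, went the other way, from 23.7, 28.6 and 28.9 TPM to 38.9, 37.4 and 36.7 TPM (0.47 ± 0.08, adjusted p = 2.8e-07), so the 3 subunits of that complex did not move together. NOC3L, a partner in nucleolar pre-60S transport (chromosome 10, 94333226 to 94362976, minus strand), had the largest rise of the set at 16 h, from 12.7, 15.8 and 14.3 TPM to 22.2, 21.4 and 22 TPM (0.59 ± 0.08, adjusted p = 2.3e-09).

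In the small subunit processome and 40S assembly, 13 of 19 genes fell and 1 rose at 4 h (median -0.28), and 12 fell and 4 rose at 16 h (median -0.35). NOL6, a structural protein of the processome (chromosome 9, 33461353 to 33473943, minus strand), had the largest fall of all 57 genes at 16 h. It went from 30.2, 31.6 and 31 TPM to 15.1, 16 and 16.1 TPM (-0.93 ± 0.04, adjusted p = 2.6e-30), with no overlap. IMP3, a U3 snoRNP protein (chromosome 15, 75639085 to 75640323, minus strand), fell from 84.2, 88.9 and 84.5 TPM to a mean of 50.55 TPM with an SD of 0.53 (-0.75 ± 0.05, adjusted p = 1.5e-22). RRP12, an export factor of pre-ribosomes, fell from 20.9, 20.6 and 20.6 TPM to 12.7, 12.7 and 12.3 TPM (-0.68 ± 0.05, adjusted p = 3.7e-21). In each of these genes every treated library lay below every DMSO library. UTP18, a processome subunit, changed direction with time. At 4 h it stood at 16.3, 31.8 and 31.2 TPM against 34.9, 42.6 and 36.9 TPM under DMSO (-0.57 ± 0.13, adjusted p = 2.1e-04), and the call rested on replicate 1, since without it the change was -0.26 (adjusted p = 0.066). At 16 h UTP18 was at 49.2, 47.4 and 49.4 TPM, above every DMSO library (0.35 ± 0.13, adjusted p = 0.014). HEATR1, a processome protein that also acts in RNA polymerase I transcription, passed at neither time (0.02 at 4 h and 0.09 at 16 h).

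More of the snoRNP proteins passed at 16 h than at 4 h. At 4 h, 2 of 3 box C/D and 2 of 4 box H/ACA proteins fell, and at 16 h all 3 and all 4 did (medians -0.39 and -0.31). NOP56, a box C/D core protein (chromosome 20, 2652532 to 2658393, plus strand), fell from 196, 216 and 211 TPM to 141, 141 and 132 TPM at 16 h (-0.59 ± 0.03, adjusted p = 2.4e-25). FBL was at 339, 346 and 335 TPM at 4 h, within the range of DMSO in part (-0.02, adjusted p = 0.51), and at 291, 292 and 295 TPM at 16 h, below every DMSO library (-0.24 ± 0.03, adjusted p = 3.7e-11). DKC1, the pseudouridine synthase, fell from 105, 112 and 112 TPM to 82, 82 and 81.1 TPM at 16 h (-0.42 ± 0.03, adjusted p = 2.5e-20). Of the chaperones, NCL reached 589, 568 and 590 TPM at 16 h (-0.38 ± 0.04, adjusted p = 4.3e-13) and NPM1 518, 515 and 510 TPM (-0.23 ± 0.05, adjusted p = 5.0e-05), each below its DMSO libraries, while NPM3, a relative of NPM1, did not pass (0.10, adjusted p = 0.098). NPM1 has many near-identical copies in the genome, so its level is uncertain.

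RNA polymerase I subunits split. POLR1C, which RNA polymerase III shares, fell from 52.5, 49.5 and 50.3 TPM to 39.4, 39.1 and 36.6 TPM at 16 h (-0.40 ± 0.04, adjusted p = 2.1e-12). POLR1B, the second largest subunit (chromosome 2, 112542036 to 112577152, plus strand), rose from 13.6, 16.4 and 15.3 TPM to 18.9, 18.9 and 18 TPM (0.29 ± 0.07, adjusted p = 4.1e-04). POLR1A did not pass (0.11, adjusted p = 0.068). Each direction therefore held 1 subunit of the same enzyme, with no overlap between groups for POLR1C and POLR1B.

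AMPK KO cells began from higher levels. Under DMSO, 43 of the 57 genes were higher and 3 lower in KO than in WT cells (16.2% and 22.7% of all tested genes), with a median difference of 0.21, and -0.02 over all genes. The genes that were higher included all 3 polymerase I subunits, all 3 box C/D proteins, 17 of 24 60S factors and 15 of 19 40S factors. DDX27, a helicase of 60S assembly, stood at 63.5, 69.9 and 68 TPM in KO and 45.6, 45 and 45.3 TPM in WT cells (0.56 ± 0.03, adjusted p = 4.8e-26). NOL6 stood at 40.8, 43.1 and 42.3 TPM in KO cells, above the WT libraries given before (0.43 ± 0.04, adjusted p = 9.2e-14). NOP14, a 40S factor, was at 48.2, 52.5 and 52.8 TPM in KO and 62.2, 67.7 and 64.3 TPM in WT cells (-0.33 ± 0.04, adjusted p = 3.5e-10), the largest difference in the lower direction, beside UTP20 (-0.32) and PES1 (-0.14). WT and KO libraries of the named genes did not overlap. Fitted on these 6 libraries alone, the count of higher genes was 28.

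With 991, KO cells had fewer and smaller changes. At 2, 4, 8 and 16 h, 13, 21, 25 and 37 genes fell (10.7%, 18.3%, 24.3% and 27.1% of all genes) and 2, 4, 10 and 9 rose (4.28%, 20.4%, 30.9% and 34.8%), with medians of -0.06, -0.08, -0.07 and -0.16. The difference of the responses was tested directly. It was above 0 for 9, 19, 13 and 22 genes at 2, 4, 8 and 16 h (1.42%, 5.49%, 5.14% and 4.96% of all genes). Limma called it below 0 for 0 genes at each time, beside 1.59%, 6.57%, 15.8% and 10% of all genes. At an unadjusted p under 0.05 the counts below 0 were 2, 0, 2 and 0. NOL6 in KO cells was at 31.8, 32.1 and 32.1 TPM at 16 h, a fall of its own (-0.38 ± 0.04, adjusted p = 5.7e-12), and the difference from the WT response was 0.55 ± 0.06 (adjusted p = 1.9e-10). RRS1 reached 39.3, 39.8 and 37 TPM from 50.7, 54.1 and 56.2 TPM in KO cells (-0.46 ± 0.05, adjusted p = 1.7e-12), with a difference of 0.36 ± 0.07 (adjusted p = 1.8e-04). RRP12 was at 22.9, 25.2 and 24.3 TPM against 26.7, 28.2 and 28.6 TPM (-0.20 ± 0.05), with a difference of 0.48 ± 0.07 (adjusted p = 1.2e-07). In these 3 genes the KO libraries under 991 lay below their own DMSO libraries, so a smaller fall remained in KO cells. With DMSO taken only at 0 h, that fall cannot be told apart from the time in culture. At 4 h the count was 6 without replicate 3, 10 without replicate 2, and 1 in a fit restricted to these 4 groups. At 16 h it was 11 without replicate 2 and 12 without replicate 3.

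**Figure D2:**
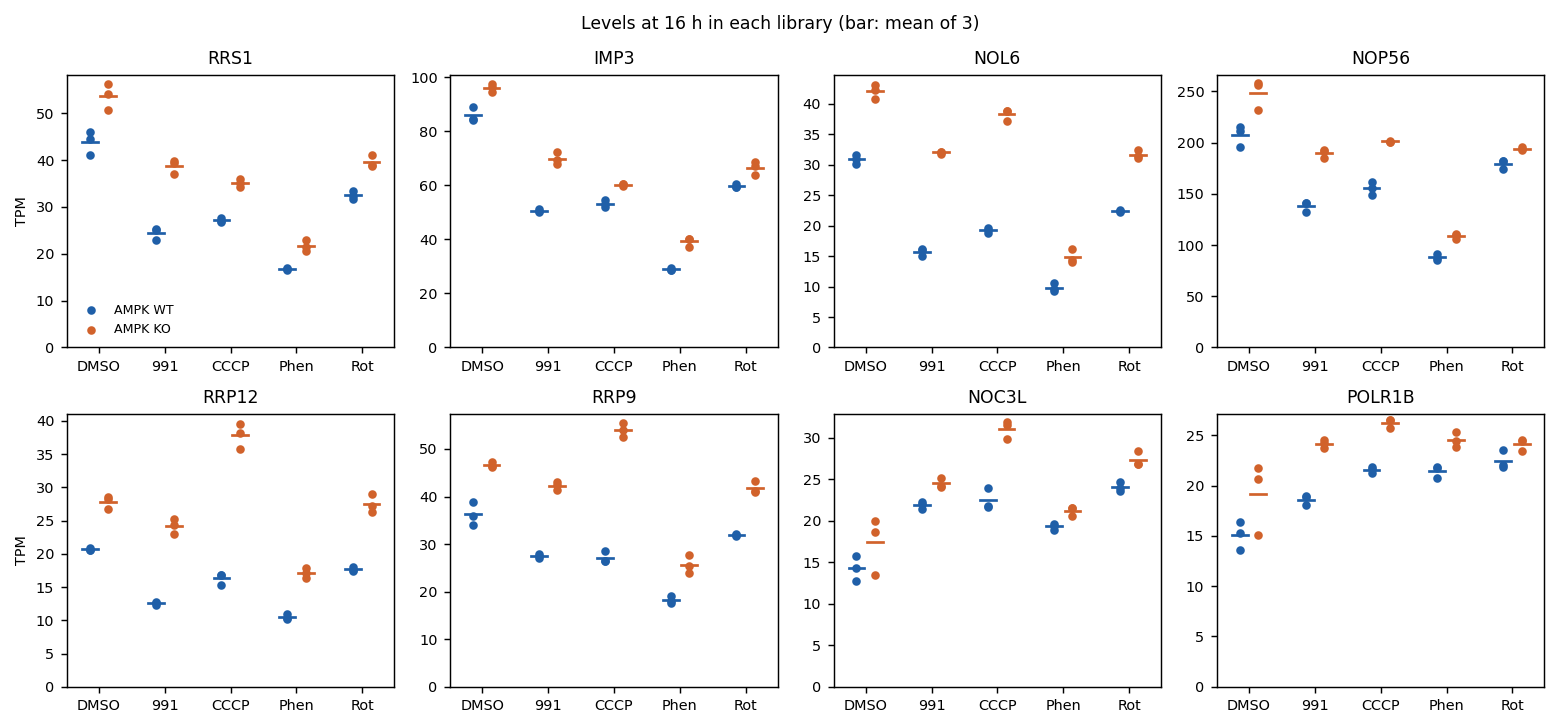
Levels (y, TPM, from 0) of 8 genes under DMSO (0 h) and after 16 h of 991, CCCP, phenformin (Phen) and rotenone (Rot); points are libraries, bars means of 3, blue AMPK WT and orange AMPK KO. NOL6 falls from a mean of 30.9 to 15.7 TPM with 991 in WT cells and from 42.1 to 32 TPM in KO cells, whereas NOC3L and POLR1B stand above DMSO with each compound in WT cells.

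The mitochondrial poisons were followed over the same times. With phenformin in AMPK WT cells, 11 genes fell and 22 rose at 2 h (31% and 23.7% of all genes), and at 16 h 45 fell and 5 rose (34.9% and 45.3%), with a median of -0.47 beside 0.07 over all genes. All 3 box C/D, all 4 box H/ACA and all 4 chaperone genes, 20 of 24 60S and 12 of 19 40S factors were among those that fell at 16 h. NOL6 fell to 9.34, 10.6 and 9.57 TPM (-1.56 ± 0.04, adjusted p = 7.3e-46) and IMP3 to 28.7, 29.4 and 28.5 TPM (-1.54 ± 0.05, adjusted p = 3.7e-42). GRWD1, a histone-binding 60S factor (chromosome 19, 48445773 to 48453907, plus strand), went from 58.4, 65.6 and 61.6 TPM to 24.2, 23.6 and 23.2 TPM (-1.35 ± 0.04, adjusted p = 5.4e-43). All 3 genes lay far below DMSO in every library, with no overlap. POLR1B (0.49), NOC3L (0.42), WDR12 (0.38) and WDR43 (0.36), a processome subunit, rose at the same time.

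CCCP gave 20 genes that fell and 19 that rose at 2 h in AMPK WT cells (32.5% and 24.2% of all genes; 16 and 25 after median-ratio scaling), 34 and 11 at 8 h (29.8% and 35.2%), and 39 and 9 at 16 h (26.6% and 44.1%; 44 and 3 after that scaling). Its median at 16 h was -0.27, beside 0.09 over all genes. IMP3 (-0.68), RRS1 (-0.67) and NOL6 (-0.66) fell most, and NOC3L (0.62) and POLR1B (0.49) rose most. Rotenone had the smallest median change of the 4 compounds at 16 h: 11 genes fell and 24 rose at 2 h (30.2% and 24.9%), and 32 fell and 12 rose at 16 h (29.2% and 36.2%), with a median of -0.11 beside 0.03 over all genes. The count that fell at 16 h was 21 without replicate 2. IMP3 (-0.51), NOL6 (-0.45) and RRS1 (-0.42) led again, and NOC3L (0.72) was the highest. At all 4 times, 17 of the 57 genes fell with CCCP, 11 with phenformin and 6 with rotenone, beside 13.9%, 18.4% and 17.7% of all genes, while 8, 5 and 12 rose, beside 15.1%, 16.7% and 19% of all genes. The members that fell throughout with phenformin and rotenone were thus near or under the share of all genes.

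**Figure D3:**
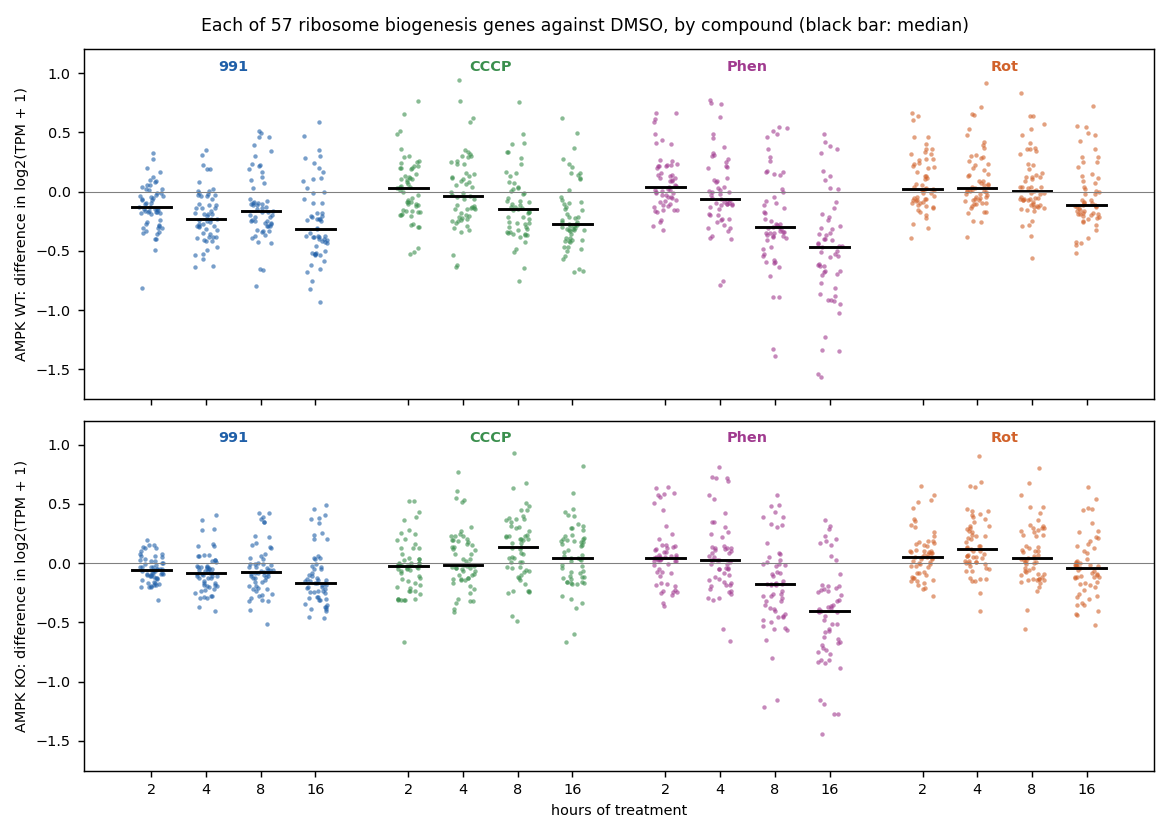
Change of each of the 57 genes against DMSO (y, difference in log2(TPM + 1)) by compound and hours of treatment (x), in AMPK WT (top) and AMPK KO cells (bottom); dots are genes and black bars medians. In WT cells the median ends at -0.47 with phenformin, -0.32 with 991, -0.27 with CCCP and -0.11 with rotenone at 16 h, and in KO cells with CCCP it lies at 0.14 at 8 h.

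Compounds were compared directly at equal times in AMPK WT cells, over 6 pairs and 4 times (24 comparisons). Doses are not known, the p-values were adjusted over all genes within each comparison, and no structural relation between the compounds is drawn. Phenformin and rotenone, which share complex I as a target, differed more with time. Against rotenone, 2, 23, 42 and 52 genes were lower with phenformin at 2, 4, 8 and 16 h (2.92%, 21.8%, 30.5% and 29.3% of all genes). Limma called 2, 0, 0 and 0 higher, beside 2.95%, 11.1%, 25.3% and 40.1% of all genes (7, 2, 0 and 0 at an unadjusted p under 0.05). After median-ratio scaling the 4 h counts were 12 lower and 4 higher. GRWD1 was at 52.3, 55.1 and 54 TPM with rotenone at 16 h, and phenformin minus rotenone was -1.15 ± 0.04 (adjusted p = 3.1e-38). NOP56 was at 182, 182 and 175 TPM with rotenone and at 87.6, 91.4 and 85 TPM with phenformin (-1.02 ± 0.03, adjusted p = 1.1e-40). Neither gene had overlapping libraries between the compounds. Between 991 and CCCP the 57 genes were closer at 16 h, with 15 lower and 1 higher under 991 (17.7% and 13.6% of all genes). The largest of these was RRP12 (-0.35 ± 0.05, adjusted p = 4.8e-09), with 16.9, 16.8 and 15.3 TPM under CCCP, and the 1 higher gene was NOP10, a box H/ACA protein (0.22). For the other 41 genes the difference did not pass, which does not show that they responded alike; for FBL it was -0.03 (95% interval -0.09 to 0.03). At 4 h of 991 and rotenone, 49 genes were lower and 1 higher with 991 (25.2% and 29.4%). UTP18 (-0.96), WDR43 (-0.79), UTP14A (-0.73) and DDX10 (-0.64), all of the processome and 40S branch, differed most, and without replicate 1 of 991 at 4 h they were at -0.66, -0.61, -0.63 and -0.46 and still passed.

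In AMPK KO cells under CCCP, 31 genes rose and 12 fell at 8 h (29.5% and 31.8% of all genes), with a median of 0.14 beside -0.02 over all genes. At 16 h 24 rose and 19 fell (39.6% and 29.3%; 17 and 22 after median-ratio scaling), with a median of 0.04 beside 0.05, so there the 57 genes were near the background of all genes. The difference between the genotypes changed with time: the KO response was called higher for 2 genes and lower for 5 at 2 h (2.09% and 6.52% of all genes; 3 and 2 after median-ratio scaling, 0 and 3 after quantile normalization) and higher for 16 and lower for 6 at 4 h (6.8% and 20.8%; 26 and 3 after median-ratio scaling). It exceeded the WT response for 33 genes at 8 h (7.62% of all genes) and for 33 at 16 h (10.5%). Limma called 0 lower at either time, beside 13.8% and 17.7% of all genes (1 and 0 at an unadjusted p under 0.05). RRP12 fell in WT cells to the values given above (-0.33 ± 0.05, adjusted p = 4.0e-09) and rose in KO cells from 26.7, 28.2 and 28.6 TPM to 38.1, 39.6 and 35.8 TPM (0.43 ± 0.05, adjusted p = 5.5e-13), a difference of 0.75 ± 0.07 (adjusted p = 7.0e-15). RRP9, a U3 snoRNP protein, went from 34, 38.9 and 36 TPM to 28.4, 26.4 and 26.4 TPM in WT cells and from 46.3, 46.5 and 47.4 TPM to 54, 55.5 and 52.5 TPM in KO cells (difference 0.61 ± 0.07, adjusted p = 1.2e-11). NOP2, a methyltransferase of the large subunit RNA, moved from 62.1, 64.6 and 61.2 TPM to 51.4, 50.1 and 50.6 TPM in WT and from 74.3, 81.8 and 77.9 TPM to 93, 92.1 and 91.8 TPM in KO cells (difference 0.54 ± 0.06, adjusted p = 1.3e-11). In all 3 genes the WT libraries went below and the KO libraries above their own DMSO. Such opposite calls with a called difference, lower in WT and higher in KO, were found for 11 genes at 8 h and 11 at 16 h, beside 0.624% and 0.874% of all genes, and for 0 and 3 at 2 and 4 h. The reverse, higher in WT and lower in KO, was found for 2 genes at 2 h (WDR75 and UTP20) and 2 at 4 h (WDR75 and POLR1A), beside 0.404% and 2.17% of all genes, and for 0 at 8 and 16 h. By these limma calls 0 of the 57 genes were opposite in either direction with 991, phenformin or rotenone, where 0.022% to 0.918% of all genes were. Counts of 0 are near those shares and say nothing about the set. IMP3 and RRS1 were not opposite between the genotypes: at 16 h with CCCP they fell in KO cells too (-0.67 and -0.60), and their differences did not pass (0.02 with a 95% interval of -0.12 to 0.15, and 0.07 with -0.06 to 0.21).

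Phenformin and rotenone gave few differences between KO and WT cells. With phenformin at 16 h, 46 genes fell and 5 rose in KO cells (37.7% and 41.2% of all genes, median -0.41), and 6 had a higher response than in WT (3.38%), or 13 under either other scaling, and 0 and 1 without replicates 2 and 3. IMP3 (0.27 ± 0.07, adjusted p = 0.0043) and RRP12 (0.24 ± 0.07, adjusted p = 0.0076) were 2 of them. NOL6 fell to 14.1, 16.2 and 14.3 TPM in KO cells (-1.44 ± 0.04, adjusted p = 1.9e-43), and its difference from WT did not pass (0.12, 95% interval 0.00 to 0.24). With rotenone the KO response was called higher for 0, 1, 1 and 0 genes at 2, 4, 8 and 16 h (0.228%, 0.984%, 0.47% and 1.01% of all genes). It was called lower for 0 genes at each time (0.448%, 1.01%, 0.323% and 0.962%). These counts were thus near the shares of all genes. The 1 gene was RRP12 each time (0.31 and 0.27), and 10, 11, 4 and 5 genes had an unadjusted p under 0.05. Rotenone alone gave 31 genes that rose and 6 that fell in KO cells at 4 h (28.3% and 28.4% of all genes, median 0.12).

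**Figure D4:**
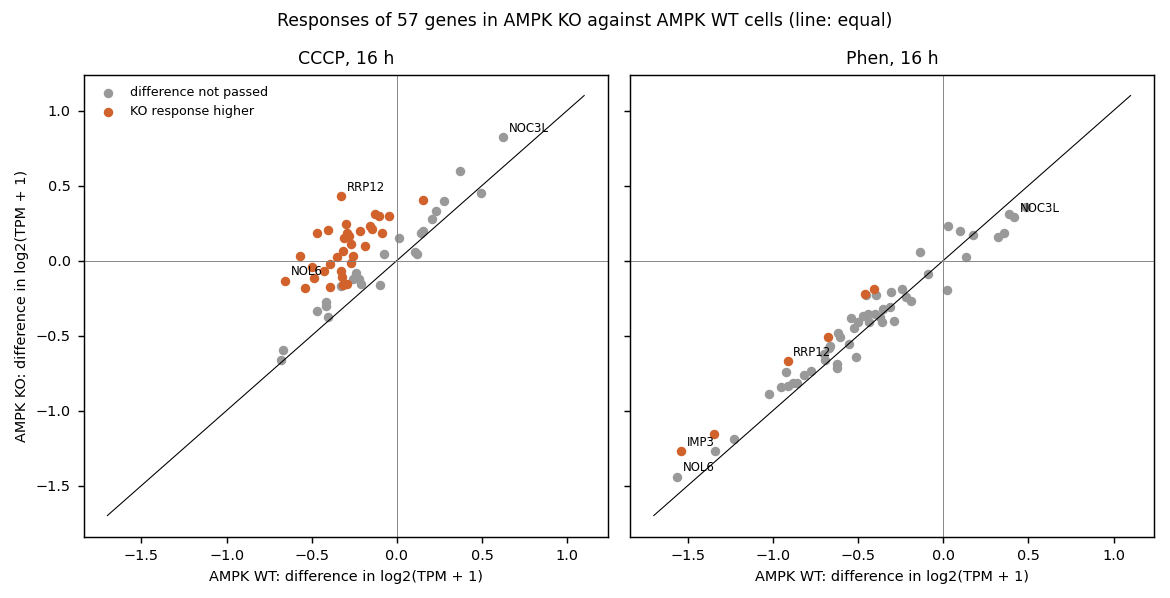
Response of each of the 57 genes in AMPK KO (y) against AMPK WT cells (x), as the difference in log2(TPM + 1) from DMSO, for CCCP and phenformin at 16 h; the line marks equal responses and orange dots are genes whose KO response was called higher. With CCCP 33 genes are orange and RRP12 lies at -0.33 in WT and 0.43 in KO cells, and with phenformin 6 are orange and NOL6 lies at -1.56 and -1.44.

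In the FNIP1 experiment genes fell with 991 in both arms, but the calls in SA5 cells depended on the fit. In cells with WT FNIP1, 14, 28, 23 and 25 genes fell at 2, 4, 8 and 16 h (1.81%, 3.66%, 4% and 4.87% of all genes), with medians of -0.25, -0.38, -0.40 and -0.40. Without SA5 DMSO replicate 1, which enters the shared estimate of spread, the counts were 32, 39, 41 and 41, without SA5 8 h replicate 1 as well 40, 44, 47 and 47, and at 4 h the count was 7 without all replicates 2 and 10 without all replicates 3. In SA5 cells 13, 15, 15 and 22 fell (2.28%, 3.69%, 2.51% and 5.76%), with medians of -0.06, -0.13, -0.22 and -0.22 beside 0.28, 0.36, 0.25 and 0.36 over all genes. Fitted on the SA5 groups compared alone, limma called 0 at each time; without DMSO replicate 1 the counts were 29, 32, 41 and 36, and without both libraries 36, 42, 41 and 42. At 4 h 9 fell without all replicates 2, and at 16 h 11 without all replicates 3. The shares of all genes given here belong to the full fit. None are given for the other fits, so the larger counts in some of them are not read as particular to the set. RRS1 fell in WT FNIP1 cells from 34.7, 38.2 and 34.8 TPM to 20.5, 20.5 and 21.6 TPM at 16 h (-0.75 ± 0.12, adjusted p = 1.3e-04). In SA5 cells RRS1 was at 23.3, 38.3 and 40.03 TPM under DMSO and at 21.3, 21.6 and 24.2 TPM at 16 h, and the fall was -0.79 ± 0.07 (adjusted p = 2.2e-08) without DMSO replicate 1. POLR1C fell with WT FNIP1 from 63.6, 65 and 63.9 TPM to 34.8, 35.9 and 36.5 TPM at 4 h (-0.83 ± 0.07, adjusted p = 2.1e-08), and in SA5 cells it went from 57.1, 67.6 and 65.6 TPM to 40.2, 45.6 and 40.5 TPM (-0.58 ± 0.07, adjusted p = 1.5e-06). DDX21, a nucleolar helicase, shows what the outlying library does: it stood at 9.09, 162 and 149 TPM in the SA5 DMSO libraries, and its change at 4 h in SA5 cells was 0.78 with that library and -0.54 without it. At 8 h it was 0.29 with both libraries, -1.02 without DMSO replicate 1 and -0.56 without both. For the difference between the arms limma called 0 of the 57 genes at each time, in all 3 of these fits, and in the full fit 0 or 1 of the 13317 tested genes in either direction (0% to 0.00751%), so these calls say nothing about the set. The median difference was 0.27, 0.35, 0.19 and 0.25 at 2, 4, 8 and 16 h, beside 0.24, 0.23, 0.15 and 0.28 over all genes, and 1, 7, 2 and 0 genes had an unadjusted p under 0.05. Under DMSO 2 genes were higher and 1 lower in SA5 cells (1.69% and 8.64%), or 4 and 0 after median-ratio scaling and 6 and 0 after quantile normalization. Without SA5 DMSO replicate 1 the counts were 0 and 0, as in the fit of these groups alone, and without both libraries 6 and 2.

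In WT cells of the TFEB and TFE3 experiment the fall was broad: 42, 42, 42, 51 and 48 genes fell at 2, 4, 8, 16 and 24 h (8.85%, 17.1%, 16.9%, 17.9% and 17.2% of all genes), with medians of -0.22, -0.28, -0.24, -0.44 and -0.36. RRS1 fell from 42.8, 45.5 and 47.2 TPM to 17.7, 17.1 and 15.7 TPM at 16 h (-1.38 ± 0.06, adjusted p = 6.4e-17). NOP16, a 60S factor, went from 58.7, 62.7 and 60.8 TPM to 32.5, 29.6 and 30.4 TPM (-0.96 ± 0.06, adjusted p = 2.8e-13) and NIP7, another, from 63.9, 62.5 and 56.9 TPM to 31, 31.8 and 31.1 TPM (-0.94 ± 0.04, adjusted p = 1.2e-16). None of these groups overlapped. In DKO cells 39, 45, 46, 49 and 43 genes fell (8.17%, 14.4%, 13.4%, 12.5% and 12.6%). Late in the course the DKO response was the smaller for part of the set: the difference was above 0 for 20 genes and below 0 for 2 at 16 h (5.74% and 6.91% of all genes), and for 25 and 1 at 24 h (4.98% and 9.71%), where 13 and 12 were above 0 without replicates 1 and 3. RRS1 in DKO cells went from 38.5, 40.3 and 40.7 TPM to 23.8, 25.5 and 26.5 TPM at 24 h, while WT cells were at 19.7, 18.3 and 16.8 TPM (difference 0.63 ± 0.09, adjusted p = 1.6e-05). The DKO libraries at 24 h lay between the WT libraries under 991 and both DMSO groups. Under DMSO 17 genes were higher and 16 lower in DKO cells (37.6% and 13.7%), or 7 and 30 after median-ratio scaling, with RRP12 highest (17.8, 17.1 and 17.7 TPM in WT, 26.3, 24.3 and 26.5 TPM in DKO) and NPM3 lowest (109, 111 and 113 TPM against 73, 78.3 and 71.9 TPM).

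ESRRA KO cells held less of these transcripts at the start. Under DMSO 36 genes were lower and 1, NPM3, higher than in WT cells (14.7% and 6.71% of all genes, median -0.17). NOL6 was at 16.4, 16.3 and 18.2 TPM in WT and 12.6, 9.93 and 13.3 TPM in KO cells (-0.48 ± 0.08, adjusted p = 4.0e-05), and HEATR1 at 33.1, 31.6 and 32.4 TPM and 24.2, 24.1 and 24.8 TPM (-0.40 ± 0.05, adjusted p = 6.6e-07). Neither pair of groups overlapped. With 991, 27, 42, 32, 40 and 40 genes fell in WT cells at 2, 4, 8, 16 and 24 h (11.4%, 14.2%, 14.6%, 15% and 15.4%) and 31, 25, 21, 35 and 31 in KO cells (16.7%, 20%, 15.3%, 12.9% and 13.2%), where 14 rose at 8 h (27.3%). The difference was above 0 for 8 genes at 4 h and 8 at 8 h (1.54% and 0.733%), and at 4 h it was called for 0 to 3 genes when any replicate was left out. At 2 h it was above 0 for 0 genes and below 0 for 1. At 16 and 24 h it was above 0 for 3 and 1 genes and below 0 for 0. The medians at 2, 16 and 24 h were -0.01, 0.03 and 0.08, beside 0.01 over all genes each time. Shares of all genes called are not given for these 3 times. RRP9 parted most, with 37.8, 34.7 and 35.1 TPM under DMSO and 38.5, 35.3 and 37.2 TPM at 8 h in WT cells, which overlap, and 30.5, 25.8 and 28.8 TPM and 41.4, 41.5 and 40.3 TPM in KO cells, which do not (difference 0.48 ± 0.08, adjusted p = 0.0022).

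With the control siRNA 30, 30, 39, 47 and 44 genes fell at 2, 4, 8, 16 and 24 h of 991 (7.37%, 10.9%, 10.9%, 12.4% and 10.9% of all genes). After median-ratio scaling 50 fell at 4 h, with a median of -0.28 beside -0.002 over all genes. The share of all genes called under that scaling is not given. With siPGC1A 30, 45, 47, 53 and 47 fell (6.74%, 12.8%, 11.2%, 12.7% and 11.4%). RRS1 fell from 33.4, 32.7 and 31.5 TPM to 18.4, 15.4 and 19.1 TPM at 16 h with the control siRNA (-0.85 ± 0.07, adjusted p = 3.1e-10). Under DMSO the arms differed for few genes, 7 higher and 5 lower with siPGC1A (14.3% and 9.89%), or 3 and 6 after quantile normalization. NPM3 was the main one, at 125, 144 and 136 TPM with the control and at 67.2, 65.1 and 67.4 TPM with siPGC1A (-1.004 ± 0.054, adjusted p = 2.5e-14). The responses differed for 1 gene at 16 h (0.187% of all genes were lower) and for 0 genes by limma at the other times, where 2, 12, 14 and 12 genes had an unadjusted p under 0.05 at 2, 4, 8 and 24 h. That gene, DDX21, stood at 93.8, 99.1 and 86.6 TPM under DMSO and 83.8, 82.2 and 89.8 TPM at 16 h with the control, which overlap, and at 80.6, 88 and 86.3 TPM and 52.9, 56.7 and 52.5 TPM with siPGC1A (difference -0.52 ± 0.08, adjusted p = 0.0020). The 0 calls at the other times do not show that the arms responded alike. No share of all genes is given for those times, so these calls are not read as particular to the set.

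Across the 10 arms, which share no libraries with each other, 5, 8, 5 and 11 of the 57 genes fell in every arm at 2, 4, 8 and 16 h of 991, beside 0.148%, 0.669%, 0.552% and 1.07% of the 12862 genes tested in all arms. These counts need the SA5 arm, where no call was made when its groups were fitted alone. Over the other 9 arms they were 6, 13, 7 and 16, beside 0.21%, 0.995%, 0.816% and 1.4%. The 11 at 16 h in all 10 arms were RRS1, IMP3, POLR1C, GRWD1, RRP1, PES1, PPAN, BYSL, NOP56, DDX56 and EBNA1BP2, that is 7 factors of 60S assembly, 2 of 40S assembly, 1 polymerase subunit and 1 snoRNP protein. RRS1 ranged from -1.38 to -0.46 over the arms at 16 h and IMP3 from -0.80 to -0.45. PPAN shares exons with a neighbouring read-through gene, and RRS1 and GRWD1 overlap an exon of another gene on the same strand, so their levels may hold reads of those genes. Of the 57 genes, 6 have a same-strand exon overlap and 21 overlap an exon on the other strand, among them POLR1C, IMP3, PES1 and EBNA1BP2. Strandedness is not given, so the levels of these may hold reads of their neighbours too. In the 5 control arms alone, 11, 20, 17 and 19 genes fell in every arm (0.622%, 1.89%, 1.48% and 2.01% of all genes), and WDR12, HEATR1 and POLR1A fell in none at 16 h. In the 6 arms followed to 24 h, 26 genes fell in every arm at that time (3.48% of all genes). NOC3L was not as uniform as in the AMPK cells: at 16 h it rose in 4 of the 10 arms and fell in 1.

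**Figure D5:**
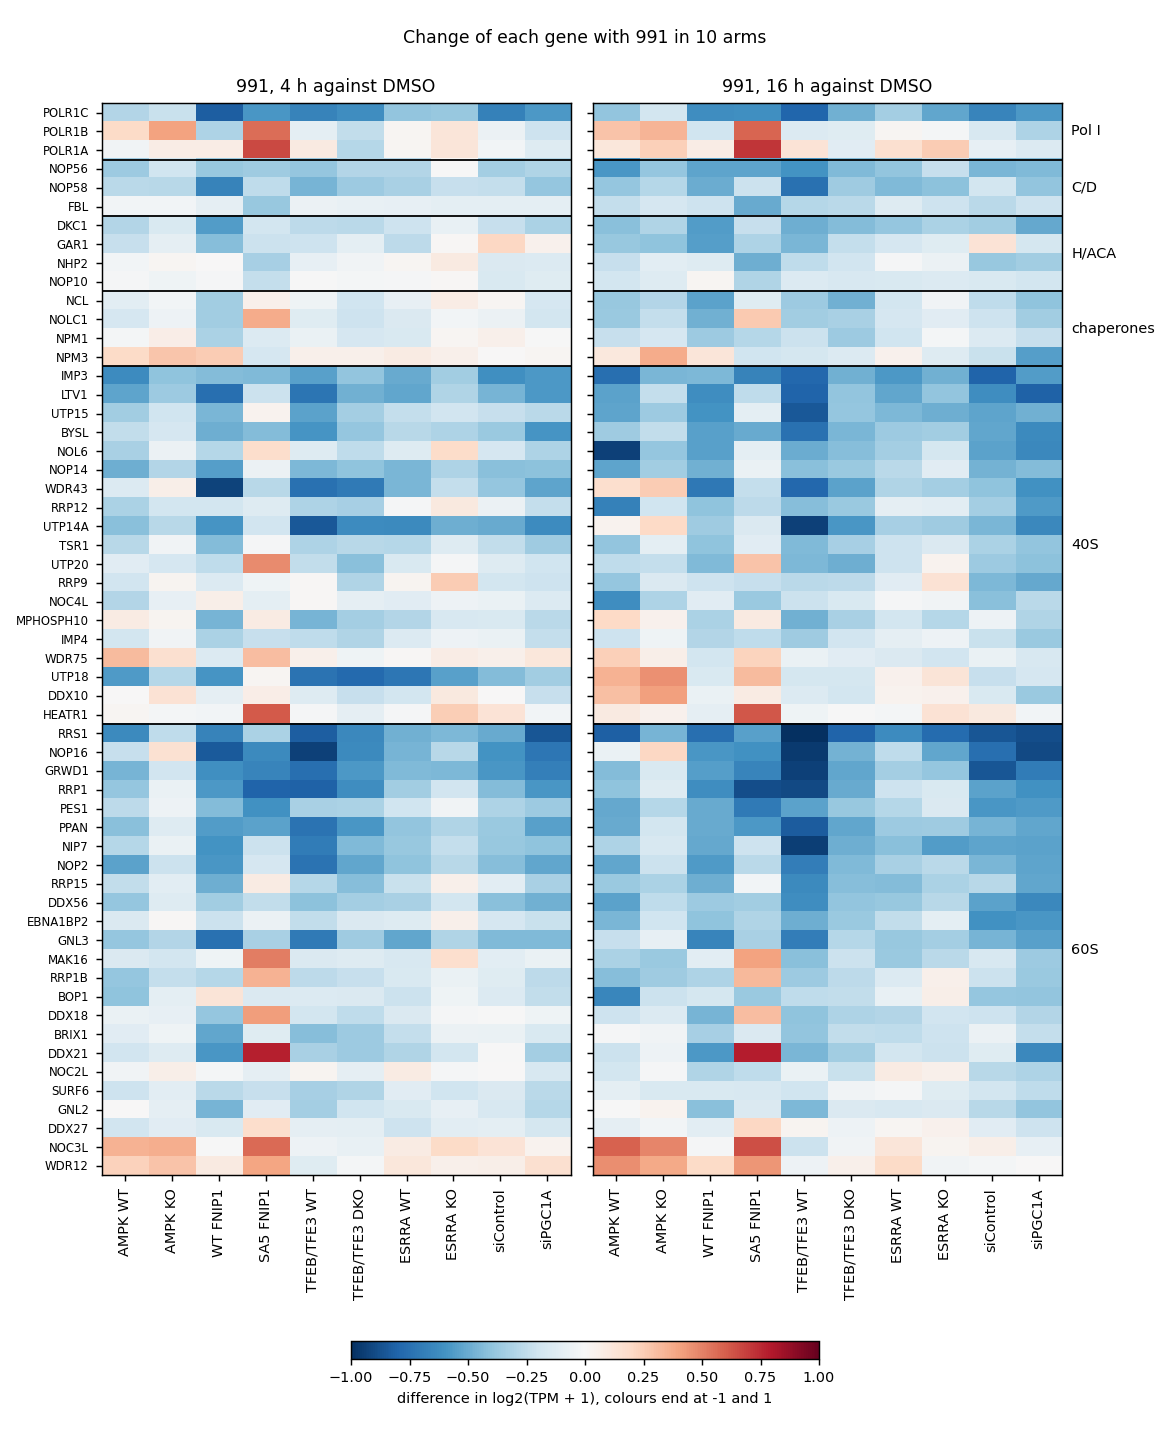
Change of each gene (rows, grouped by role) with 991 against DMSO in the 10 arms (columns) at 4 h (left) and 16 h (right), as the difference in log2(TPM + 1); blue is lower, red higher, and colours end at -1 and 1. RRS1, IMP3 and POLR1C are blue in all 10 columns, and the red cells of the SA5 FNIP1 column, such as DDX21 at 0.78 at 4 h, rest on SA5 DMSO replicate 1.

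MYC transcript did not fall with the set in AMPK WT cells under 991. Its change was 0.12, 0.11 and -0.08 at 2, 4 and 8 h, none of which passed, and 0.37 at 16 h (adjusted p = 1.3e-04). With CCCP MYC rose by 0.80 at 2 h and fell by 0.37 at 16 h. MYC values of the other arms are not given here, and whether MYC bears on the changes of the set was not tested. The 86 other tested genes of ribosome biogenesis, from lists of processome, 60S, polymerase I and exosome factors, gave 40 that fell and 6 that rose at 4 h of 991 in AMPK WT cells (18.9% and 27% of all genes, median -0.11) and 37 and 21 at 16 h (26.9% and 41.9%, median -0.03). CCDC86 (-0.84 ± 0.05, adjusted p = 1.7e-22) and DHX37, the helicase that helps release U3 (-0.81 ± 0.05, adjusted p = 4.9e-21), fell most at 4 h. TAF1A, a subunit of the polymerase I selectivity factor, rose most (0.44 ± 0.11, adjusted p = 7.4e-04) and stood at 0.87 at 16 h. With phenformin at 16 h, 46 of these 86 fell and 23 rose (34.9% and 45.3% of all genes), led by UTP3 of the processome (-2.14 ± 0.06, adjusted p = 1.3e-45). Under DMSO 45 of them were higher and 4 lower in AMPK KO than in WT cells (16.2% and 22.7% of all genes), and with CCCP at 16 h the KO response was higher for 35 and lower for 2 (10.5% and 17.7%).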

How the data were processed

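Polyadenylated RNA was sequenced, and the authors deposited TPM, in 1 table for each of the 5 experiments. FastQC, STAR, HOMER and GRCh38 are named per the submitters' processing notes, without versions; strandedness is not given in the sources used here. TPM were scaled separately by table, so tests stayed within a table. Genes of at least 1 TPM in 3 libraries were fitted as log2(TPM + 1) in limma 3.58.1 (R 4.3.3; lmFit, eBayes with trend), with 1 mean per group over all groups of a table and Benjamini-Hochberg adjustment over all genes of a contrast, and called at 0.05. A fold change on this scale understates that of low genes. Summaries and figures used Python 3.11.15, pandas 2.3.3 and matplotlib 3.10.9.

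The members, the other lists and the tests were chosen with earlier results of these data known. Named genes are up to 4 called members with the largest change in each direction of a contrast and a panel of 12 (FBL, DKC1, NOP56, NPM1, NCL, POLR1A, POLR1B, RRS1, RRP9, NOP2, PES1 and HEATR1), besides MYC, the targeted genes and the leading genes of the other lists. WDR12, POLR1C, UTP18 and genes named for a role were added after their values were seen. Alternatives were 2 other scalings, a pseudocount of 0.1, no filter, only the groups compared, a replicate block and leaving out each replicate. Fits without SA5 DMSO replicate 1, without it and SA5 8 h replicate 1, and without AMPK WT 991 4 h replicate 1 were chosen after seeing the data. The fit was tested on simulated data.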

Additional observations from a re-analysis of the deposited data

Results flagged for a closer look

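The following responses differed between an altered arm and its control by limma's test of the difference, and each was the largest such difference among the 57 genes for its compound and experiment. NOL6 fell less with 991 at 16 h in AMPK KO than in AMPK WT cells, by 0.55 on the log2 scale. RRP12 led with all 3 mitochondrial poisons: its KO response exceeded the WT response by 0.75 with CCCP at 16 h, by 0.36 with phenformin at 8 h and by 0.31 with rotenone at 4 h. RRP12 was at 16.4, 15.5 and 15.6 TPM in WT and 27.4, 28.3 and 27.4 TPM in KO cells after 8 h of phenformin, and at 23.1, 23.2 and 22.9 TPM and 39.3, 38.6 and 38 TPM after 4 h of rotenone. RRS1 fell less with 991 at 24 h in TFEB and TFE3 DKO cells than in WT cells, by 0.63. RRP9 differed by 0.48 between ESRRA KO cells, where it rose (0.52), and WT cells, where its change (0.05) did not pass, at 8 h. DDX21 differed by -0.52 between siPGC1A and the control siRNA at 16 h.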

How the results depend on the processing

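No called value of a named gene changed sign under any alternative: 3969 values kept their call, 252 lost it and 135 gained one. Values that were not called could change sign: DDX21 in SA5 cells at 4 and 8 h did so without SA5 DMSO replicate 1. Of the main counts 309 values stayed within 1.5 times and 55 did not (734 and 139 for the other counts). With a replicate block 130 counts stayed within that range and 4 moved, none of them among the counts that answer a comparison, where for example 25 genes had a higher KO response with 991 at 16 h, beside 22 without it. Same-numbered libraries deviated together (r over 0.1) in 34.6% of pairs in the AMPK table, against 8.76% of pairs with different numbers, and in 1.01% to 14.8% elsewhere. In the AMPK table replicate 1 had the lowest median of the 57 genes in 26 of 34 groups, a hint of an effect shared by number that the labels do not record. The main fit did not pair the libraries by number, because not every pair was above 0.1. That rule does not exclude such an effect, and only the fit with a replicate block allows for it. Other scalings shifted the median of all genes by -0.37 to 0.30 in the FNIP1 table, by up to -0.16 in the siRNA table, -0.12 in the TFEB and TFE3 table and 0.11 in the AMPK table. Depth is unknown, and 3 libraries a group limit the precision; the cause of each move below was not tested, unless it is the loss of samples.

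Leaving out each replicate in turn gave 21 to 31 genes that fell with rotenone at 16 h in AMPK WT cells (32 in the full fit), 6 to 17 higher KO responses with 991 at 4 h (19), 11 to 23 at 16 h (22) and 0 to 7 with phenformin at 16 h (6). It gave 7 to 42 and 8 to 42 genes that fell at 4 and 16 h with WT FNIP1 (28 and 25), 9 to 37 and 11 to 40 in SA5 cells (15 and 22), and 0 to 3 higher in SA5 under DMSO (2). The ranges were 12 to 17 for the DKO difference at 24 h (25), 0 to 3 for the ESRRA difference at 4 h (8) and 2 to 5 for siPGC1A under DMSO (7).

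Fitting only the groups compared gave 13 genes that fell in AMPK KO cells with 991 at 4 h (21), 28 higher in KO under DMSO (43), 1 higher KO response with 991 at 4 h (19), 45 and 48 that fell at 4 and 16 h with WT FNIP1, 0 and 0 in SA5 cells, 0 higher in SA5 under DMSO, 0 for the ESRRA difference at 4 h and 3 for siPGC1A under DMSO. Median-ratio scaling gave 13 for the phenformin difference at 16 h, 39 and 44 genes that fell in SA5 cells at 4 and 16 h, 4 higher in SA5 under DMSO, 7 higher in DKO under DMSO (17), 18 for the ESRRA difference at 4 h and 50 that fell with the control siRNA at 4 h (30). Quantile normalization gave 13 for the phenformin difference, 6 higher in SA5 and 3 higher with siPGC1A under DMSO, and no filter gave 1 higher in SA5. Without SA5 DMSO replicate 1, 41 genes fell at 16 h with WT FNIP1 and 32 and 36 at 4 and 16 h in SA5 cells, and 0 were higher in SA5 under DMSO. Without SA5 8 h replicate 1 as well, the counts were 44 and 47, 42 and 42, and 6.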
